A study of Homo sapiens with 8 samples.

Results

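The MYC, MAX and MXD network comprises the transcription factors that compete for the shared partner MAX and for the sites MAX dimers bind. It was taken here as 10 genes listed by symbol: MYC, MYCL and MYCN, their partner MAX, the antagonists MXD1, MXI1, MXD3, MXD4 and MNT, and the related partner MLX. All 10 of these genes, among the 19056 genes named on the array, were measured, by 19 probes. Gene expression was measured in A549, a long-established human lung carcinoma line, with 8 one-color Agilent whole human genome arrays in 2 series. In the first, cells received the vehicle or 1.25, 5 or 20 μg/mL of EEDS, an ethanol extract of Descurainia sophia seeds. In the second, cells received the vehicle or 3.75, 15 or 60 nM of helveticoside, a cardiac glycoside present in EEDS. Cells carried no engineered change, and each series had a vehicle control of its own. Exposure lasted 24 h according to the methods text and 48 h according to the labels. RNA from 3 cultures was pooled for each array and each dose had 1 array, so no value has a replicate error and no single dose has a p-value.

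MYC, MYCN and MYCL are basic helix-loop-helix leucine zipper proteins that activate transcription as dimers with MAX, which bind the E-box CACGTG. MXD1, MXI1, MXD3, MXD4 and MNT also dimerize with MAX, bind the same sites, and recruit SIN3 corepressors. MLX is a MAX-like protein that pairs with MLXIP, MLXIPL and some of the antagonists. In many tissues MYC accompanies growth and proliferation, whereas MXD1 accompanies differentiation and exit from the cell cycle.

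Because the network's own dimers bind CACGTG, the stretch of 250 bases before the transcription start was read for each member from RefSeq sequences of GRCh38.p14, with 12 start sites of 9 members matched and none for MYC, which the counts of motifs therefore leave out. The windows of the 3 members that hold CACGTG (in capitals) are shown together with that of MXD1, which holds none. Each reads 5′ to 3′ on the strand of the gene and ends at the base before the start. They lie at chr17:2401061-2401310 on the minus strand for MNT, chr4:2262110-2262359 on the minus strand for MXD4, chr17:42566850-42567099 on the plus strand for MLX and chr2:69914859-69915108 on the plus strand for MXD1.
MNT: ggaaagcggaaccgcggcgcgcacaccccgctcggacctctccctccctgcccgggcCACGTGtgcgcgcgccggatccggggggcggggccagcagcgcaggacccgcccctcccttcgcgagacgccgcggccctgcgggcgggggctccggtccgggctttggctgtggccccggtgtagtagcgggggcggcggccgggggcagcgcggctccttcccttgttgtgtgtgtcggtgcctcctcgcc
MXD4: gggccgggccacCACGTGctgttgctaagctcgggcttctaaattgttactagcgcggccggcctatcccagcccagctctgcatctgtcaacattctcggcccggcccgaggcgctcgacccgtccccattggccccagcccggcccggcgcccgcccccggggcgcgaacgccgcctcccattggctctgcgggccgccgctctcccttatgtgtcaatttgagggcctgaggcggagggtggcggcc
MLX: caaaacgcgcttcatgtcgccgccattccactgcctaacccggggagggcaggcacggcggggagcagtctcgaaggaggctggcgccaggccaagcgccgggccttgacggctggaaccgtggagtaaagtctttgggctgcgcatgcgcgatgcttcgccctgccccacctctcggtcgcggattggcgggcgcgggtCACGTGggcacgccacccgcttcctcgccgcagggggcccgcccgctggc
MXD1: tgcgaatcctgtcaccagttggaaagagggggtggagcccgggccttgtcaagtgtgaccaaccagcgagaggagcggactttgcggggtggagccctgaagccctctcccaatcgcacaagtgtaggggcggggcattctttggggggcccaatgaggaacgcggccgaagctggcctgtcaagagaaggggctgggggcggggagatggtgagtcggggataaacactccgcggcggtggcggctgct
The E-box began 193 bases before the start of MNT, 238 before that of MXD4 and 50 before that of MLX. Searched in the same way, CACGTG, which reads the same on both strands, was present in 6.34% of 35116 windows of all genes and in 3 of 12 windows of the members. The AP-1 motif TGANTCA, searched on both strands, was present in 6.57% of all windows and in 1 member window, that of MXD3. The motif TGACGTCA was present in 1.65% of all windows and in 0 member windows. The GC box GGGCGG, searched on both strands, was present in 42.6% of all windows and in 11 member windows, which covered all 9 members matched. None of these matches overlapped another, and a match describes the letters only. The G and C content of the 12 member windows ran from 55.6% to 78.0%, beside a median of 58.0% over all windows. Of the 12, MAX supplied 2 and MXI1 3. The part of base composition in these counts was not tested.

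Probe spots had a median signal of 182 to 214 on the EEDS arrays and 223 to 278 on the helveticoside arrays, and no spot was saturated. The scanner software called 63.3% to 64.9% of probes well above background on the EEDS arrays and 54.5% to 59.5% on the helveticoside arrays. All 6 epithelial markers (EPCAM, KRT8, KRT18, KRT19, KRT7 and CDH1) were well above background on all 8 arrays, with a log2 of the summed signals of the whole list of 19.41 to 19.78. Of 6 leukocyte markers, 3 (PTPRC, CD14 and CD79A) were well above background on all arrays, with a log2 of the summed signals of the whole list of 11.71 to 13.36, and CD3E was on none. Of 4 endothelial markers, CDH5 was well above background on all arrays, whereas PECAM1, VWF and KDR were on none, and the log2 of the summed signals of the whole list was 7.20 to 7.94. Of 6 fibroblast markers, COL1A1 was on all arrays and COL1A2, PDGFRB and DCN on none, with a log2 of the summed signals of the whole list of 8.22 to 9.31. The part of these markers in the results below was not tested.

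Levels are log2 signals after quantile normalization of the 8 arrays, each from the brightest probe of the gene, and are compared between arrays but not between genes. Ratios are log2 differences from the vehicle control of the same series. Of the 10 members, 8 were well above background on all 8 arrays, as were 11493 of 19056 genes. MYCL was well above background on the 4 EEDS arrays and on the helveticoside control alone, and MYCN on no array. The dose trend is the slope of the log2 level on the dose step (vehicle, low, middle, top), fitted with limma to all 8 arrays, and passed where the adjusted p over 19046 genes was under 0.05.

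**Figure D1:**
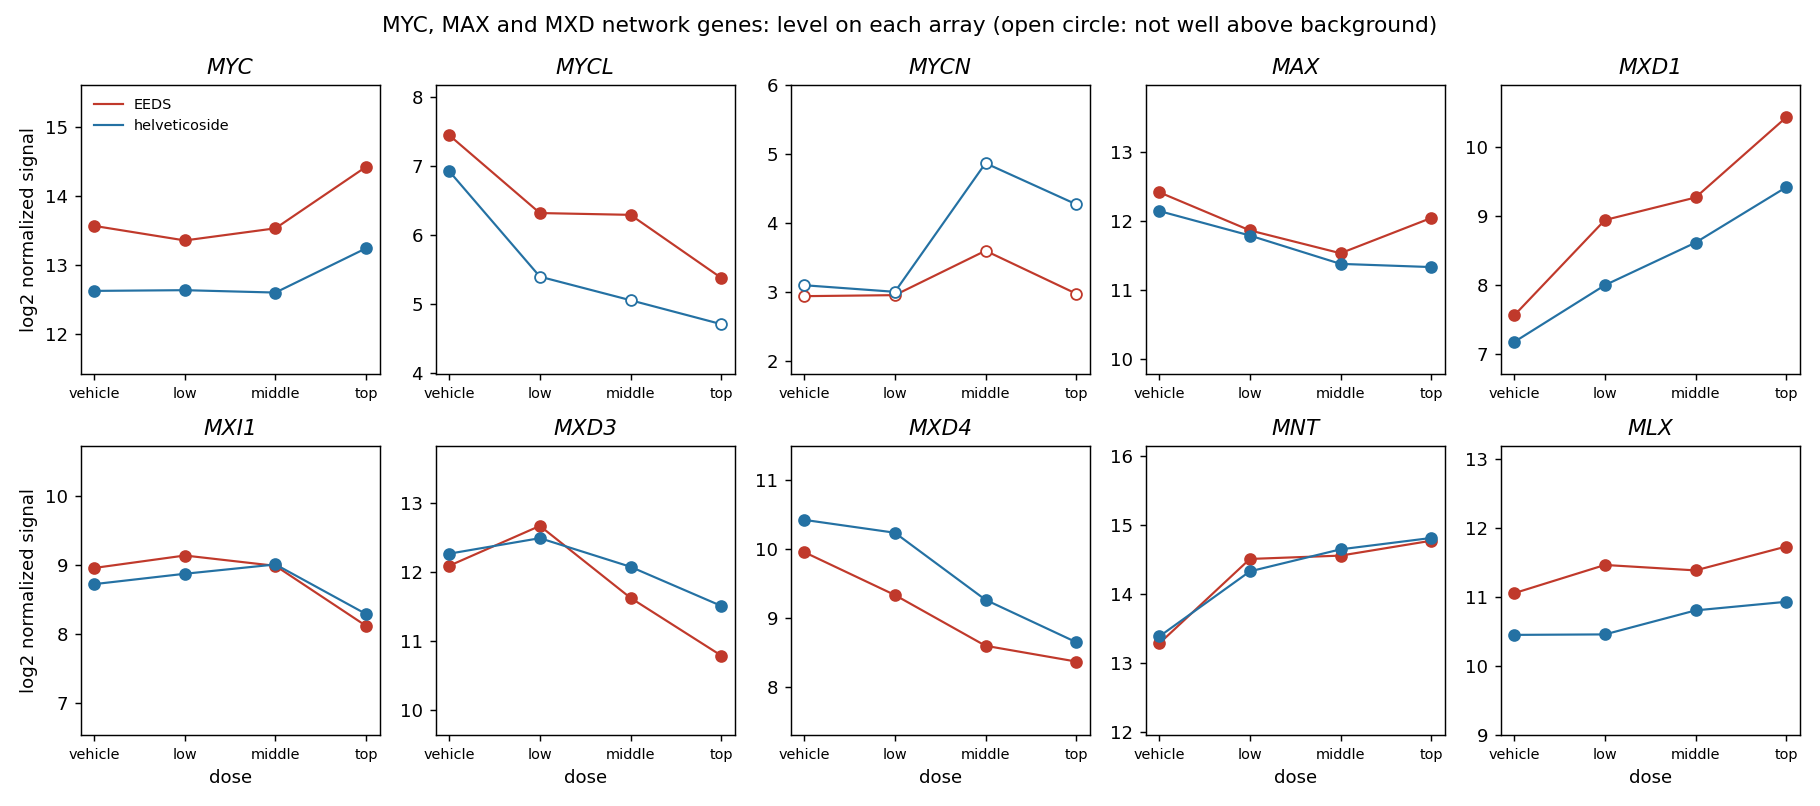
Log2 normalized signal (y axis) of the 10 network genes on each array, by dose (x axis), for EEDS (red) and helveticoside (blue). Each point is 1 array, open points are not well above background, and each panel spans the same log2 range. MXD1 climbs from 7.57 to 10.44 and from 7.18 to 9.42, whereas MXD4 descends from 9.95 to 8.37 and from 10.42 to 8.65.

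In both series 2 antagonists of MYC moved in opposite directions: MXD1 rose and MXD4 fell. At the top doses MXD1 was 7.32-fold (EEDS) and 4.74-fold (helveticoside) above its control, and MXD4 was 3.01-fold and 3.42-fold below. MNT was 2.81-fold and 2.69-fold above its control without passing the trend test, and MYC itself was 1.81-fold and 1.54-fold above, also without passing. In RNA of whole cultures, fewer cells expressing a gene and less of its RNA per cell cannot be told apart. With EEDS, 1 of 10 members passed as rising and 1 as falling, where 7.3% of all genes passed as rising and 7.9% as falling, 15.2% altogether. With helveticoside the same 2 members passed, 1 in each direction, where 5.52% of all genes rose and 5.85% fell, 11.4% altogether. Over all genes, 4.49% passed as rising in both series and 4.73% as falling in both. At an unadjusted p under 0.05, 6 members passed with EEDS and 5 with helveticoside, as did 33.5% and 29.9% of all genes. The median slope of the 10 members was -0.03 per step with EEDS and 0.03 with helveticoside, beside 0.01 and -0.01 over all genes.

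Beyond 2-fold, MXD1 and MNT were higher and MYCL lower at 1.25 μg/mL EEDS, where 3.15% of genes were over 2-fold higher and 2.51% lower. MXD4 joined the lower genes at 5 μg/mL, with 5.96% of all genes higher and 6.68% lower. At 20 μg/mL the counts were 2 members higher (MXD1 and MNT) and 3 lower (MYCL, MXD3 and MXD4), with 11.5% and 12.5% of all genes. At 3.75 nM helveticoside 0 members were shown to be past 2-fold in either direction, beside 1.26% of genes higher and 1.13% lower. MYCL, at least 1.96-fold lower there, is a bound and may have been past 2-fold. At 15 nM MXD1 and MNT were higher and MYCL and MXD4 lower, beside 4.29% and 5.48% of all genes. The counts at 60 nM were again 2 and 2, of the same genes, beside 7.95% and 9.79%.

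MYC, the central activator of the network, had log2 levels of 13.57 on the EEDS control and 13.36, 13.53 and 14.43 at 1.25, 5 and 20 μg/mL. On the helveticoside control it stood at 12.62, with 12.64, 12.60 and 13.24 at 3.75, 15 and 60 nM. In both series only the top dose stood apart, at ratios of 0.86 and 0.62, whereas the low and middle doses lay between -0.21 and 0.01. The difference between the 2 vehicle controls, -0.94 (helveticoside minus EEDS), was larger than either top-dose ratio, and every helveticoside array was below every EEDS array. Across the 12389 genes well above background on both controls, that difference had an SD of 0.50 and a median absolute value of 0.28. The slope of MYC was 0.27 ± 0.13 per step (SE; adjusted p = 0.209 by limma) with EEDS and 0.18 ± 0.13 (adjusted p = 0.442 by limma) with helveticoside, so the trend test was not passed in either series. Left without its top array, the slope became -0.02 in the EEDS series and -0.01 in the helveticoside series. With dose entered as a share of the top dose in place of the step, MYC passed with EEDS (adjusted p = 0.0288 by limma). The MYC probe had 10 spots on each array, whose log2 signals had an SD of 0.05 to 0.07 within an array. Before normalization its processed signal was 10221, 12060, 14030 and 32550 on the EEDS arrays in order of dose and 5002, 4085, 4904 and 9798 on the helveticoside arrays. Measured against the control of the other series, the ratio of MYC was 1.80 at 20 μg/mL EEDS and -0.32 at 60 nM helveticoside.

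MYCL, the family member first found in lung cancer cells, had log2 levels of 7.45, 6.32, 6.29 and 5.38 over the EEDS series. The ratios were -1.13, -1.16 and -2.07, a level 4.20-fold lower at 20 μg/mL, and all 3 treated arrays were below the control. In the helveticoside series the control was at 6.93, and the treated arrays at 5.40, 5.06 and 4.71 were not well above background. MYCL was therefore at least 1.96-fold lower at 3.75 nM, at least 3.26-fold lower at 15 nM and at least 2.74-fold lower at 60 nM, each bound set by the lowest signal well above background on that array. The slopes of -0.62 ± 0.16 (adjusted p = 0.0600 by limma) and -0.70 ± 0.16 (adjusted p = 0.0538 by limma) did not pass. They passed in both series with scaling to the 75th percentile, the signal as scanned or normexp correction (adjusted p 0.0173 to 0.0355 by limma). With these 3 settings 18.6% to 20.9% of all genes passed with EEDS and 13.1% to 13.9% with helveticoside. As scanned, the top-dose ratios of MYCL were -1.14 and -1.07. A second, dimmer MYCL probe was well above background on the 20 μg/mL EEDS array alone, with a log2 difference of 1.70 there from the control, opposite to the first probe. Averaged over both probes, the top-dose ratios of MYCL were -0.19 and -0.27. MYCN, the family member of neuroblastoma, lay between 2.94 and 3.60 on the EEDS arrays and between 3.005 and 4.87 on the helveticoside arrays, not well above background on any, and no ratio is given for it.

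MAX, the obligate partner of the MYC proteins, had log2 levels of 12.42, 11.86, 11.53 and 12.04 over the EEDS series and 12.14, 11.79, 11.38 and 11.33 over the helveticoside series. On this brightest probe all 6 treated arrays were below their controls, with the lowest EEDS value at the middle dose and the lowest helveticoside value at the top dose. The slopes of -0.15 ± 0.12 (adjusted p = 0.469 by limma) and -0.29 ± 0.12 (adjusted p = 0.174 by limma) did not pass. The 3 probes of MAX disagreed: the others had top-dose ratios of -0.04 and 0.47 with EEDS and -0.26 and 0.08 with helveticoside, against -0.37 and -0.81 for the brightest. With the mean of all probes the EEDS slope became 0.01. With helveticoside the dimmest probe, well above background on all 4 arrays, was above its control at every dose (0.38, 0.39 and 0.08). No direction is therefore given for MAX in either series.

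MXD1, the MAX partner that accompanies differentiation, had log2 levels of 7.57, 8.95, 9.27 and 10.44 over the EEDS series and 7.18, 8.003, 8.62 and 9.42 over the helveticoside series. The level was higher at each dose than at the dose before it in both series, with ratios of 1.38, 1.71 and 2.87 for EEDS and 0.82, 1.44 and 2.24 for helveticoside. Its slope was 0.89 ± 0.10 per step with EEDS (adjusted p = 0.0133 by limma) and 0.74 ± 0.10 with helveticoside (adjusted p = 0.0194 by limma). A second MXD1 probe, also well above background on all arrays, had ratios of 1.12, 2.05 and 4.11 with EEDS and 1.15, 2.09 and 3.33 with helveticoside. Without the EEDS control or the 20 μg/mL array, the EEDS call was lost (adjusted p = 0.116 and 0.125 by limma), as was that of every other gene in the EEDS series. Without the control, the 15 nM or the 60 nM array of its own series, the helveticoside call was lost as well (adjusted p = 0.0900, 0.0631 and 0.267 by limma), while the slope stayed between 0.71 and 0.74. With dose as a share of the top dose neither call held (adjusted p = 0.0941 and 0.171 by limma).

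MXD4, a sister antagonist that is also linked to differentiation, had log2 levels of 9.95, 9.33, 8.59 and 8.37 over the EEDS series and 10.42, 10.23, 9.26 and 8.65 over the helveticoside series. Both series were lower at each dose than at the dose before it, with ratios of -0.62, -1.36 and -1.59 for EEDS and -0.19, -1.16 and -1.77 for helveticoside. The slopes were -0.55 ± 0.09 (adjusted p = 0.0213 by limma) and -0.63 ± 0.09 (adjusted p = 0.0216 by limma). Its second probe had top-dose ratios of -1.90 and -1.41. The EEDS call was lost without the EEDS control, the 20 μg/mL array or the 15 nM helveticoside array (adjusted p = 0.161, 0.126 and 0.0555 by limma). The helveticoside call was lost without the 1.25 μg/mL EEDS array, the helveticoside control, 15 nM or 60 nM (adjusted p = 0.0513, 0.0534, 0.0664 and 0.267 by limma). Neither held with dose as a share of the top dose (adjusted p = 0.2002 and 0.136 by limma).

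MNT, the most widely expressed of the MAX-bound repressors, had log2 levels of 13.28, 14.50, 14.55 and 14.77 over the EEDS series and 13.38, 14.32, 14.64 and 14.81 over the helveticoside series. Most of the distance from the control was present at the low dose, with ratios of 1.23, 1.27 and 1.49 for EEDS and 0.94, 1.26 and 1.43 for helveticoside. The slopes of 0.45 ± 0.14 (adjusted p = 0.0850 by limma) and 0.46 ± 0.14 (adjusted p = 0.0945 by limma) did not pass. They passed in both series with scaling to the 75th percentile, the signal as scanned, normexp correction, the authors' values, genes well above background on all arrays, or the mean of all probes, with adjusted p of 0.0276 to 0.0496 by limma. Under those settings 14.8% to 31.3% of all genes tested passed with EEDS and 9.16% to 24.2% with helveticoside. When the vehicle control of the same series was left out, the slope of MNT became 0.13 with EEDS and 0.24 with helveticoside, and neither passed. The second MNT probe had ratios of 0.37, 0.42 and 1.32 with EEDS and 0.96, 0.83 and 1.44 with helveticoside, so the early step with EEDS was smaller on that probe.

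MXD3, an antagonist found in proliferating cells, had log2 levels of 12.09, 12.67, 11.62 and 10.78 over the EEDS series and 12.26, 12.49, 12.07 and 11.50 over the helveticoside series. In both series the low dose was above the control and the middle and top doses below it. The top-dose ratios were -1.30 and -0.76, and the slopes of -0.50 ± 0.18 (adjusted p = 0.119 by limma) and -0.27 ± 0.18 (adjusted p = 0.403 by limma) did not pass. A second, dimmer MXD3 probe, well above background on all 4 EEDS arrays, stood at -0.26 at 20 μg/mL, and with the mean of all probes MXD3 was at -0.78 there, under 2-fold. On the helveticoside arrays that probe was at -0.31 at 3.75 nM, below the control where the brightest probe was above it, and it was well above background on 2 of the 4. MXI1, which also binds MAX and SIN3 corepressors, had log2 levels of 8.96, 9.14, 8.99 and 8.12 over the EEDS series and 8.73, 8.88, 9.01 and 8.29 over the helveticoside series. Only its top dose lay below the control, at -0.84 and -0.43, and its 3 probes were all lower there in both series, 1 of them without being well above background. The slopes of -0.27 ± 0.14 (adjusted p = 0.261 by limma) and -0.12 ± 0.14 (adjusted p = 0.708 by limma) did not pass. MLX had log2 levels of 11.06, 11.46, 11.39 and 11.73 over the EEDS series and 10.45, 10.46, 10.81 and 10.93 over the helveticoside series, with slopes of 0.20 ± 0.06 (adjusted p = 0.0888 by limma) and 0.18 ± 0.06 (adjusted p = 0.123 by limma) that did not pass. All treated arrays were at or above the MLX control of their series, but the controls differed by -0.61, more than the helveticoside top-dose ratio of 0.48.

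**Figure D2:**
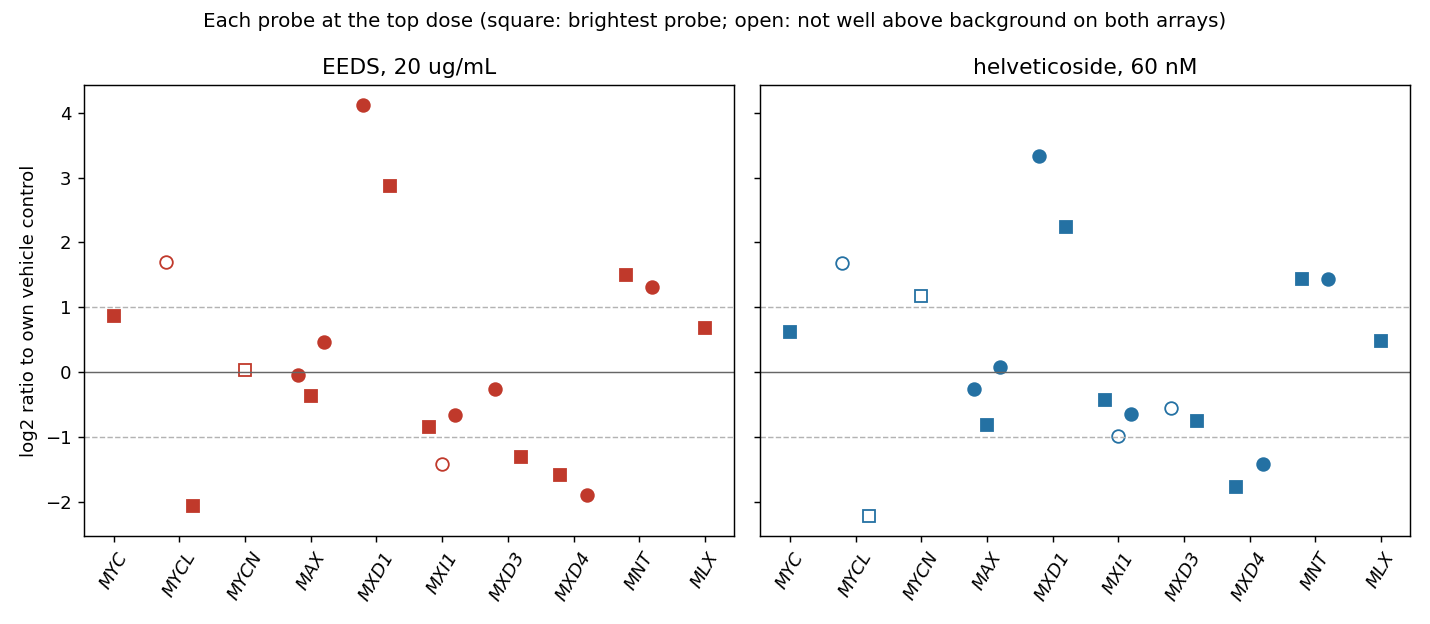
Log2 ratio to the series' own vehicle control (y axis) of each of the 19 probes of the 10 network genes (x axis) at 20 μg/mL EEDS (left) and 60 nM helveticoside (right). Squares are the brightest probe of a gene, circles its other probes, open symbols were not well above background on both arrays, and dashed lines mark 2-fold. Both probes of MXD1 and of MNT lie above 1 and both of MXD4 below -1 in each panel, whereas the probes of MAX and of MYCL lie on both sides of 0.

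EEDS and helveticoside were set side by side at each step, although their doses are in different units. The difference of the slopes, EEDS minus helveticoside, was 0.16 for MXD1 (95% interval -0.18 to 0.50), 0.08 for MXD4 (-0.24 to 0.40), 0.09 for MYC (-0.37 to 0.55) and -0.01 for MNT (-0.50 to 0.48). By limma, 0 members and 0 of 19046 genes, 0.0%, passed the test of the difference. The intervals leave room for differences as large as the slope of MYC itself, so the same slope in both series is not shown. The 8 members well above background on all arrays had the same sign at both top doses, as did 87.0% of the 11493 genes measured that well.

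**Figure D3:**
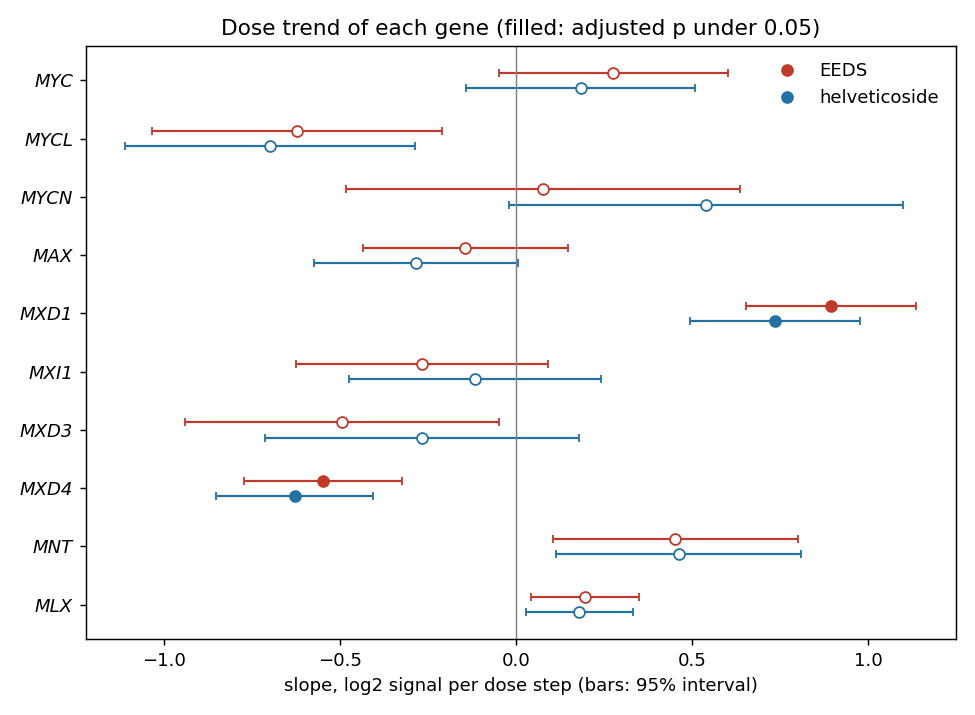
Slope of the log2 level per dose step (x axis) of each network gene (y axis) with EEDS (red) and helveticoside (blue). Bars are 95% intervals from the limma fit and filled points passed at an adjusted p under 0.05. The points of MXD1 (0.89 and 0.74) and MXD4 (-0.55 and -0.63) are filled in both series and no others are, and the bars of the 2 agents overlap for every gene.

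The antagonists shifted by different amounts from MYC on the same arrays. At the top doses the ratio of MXD1 exceeded that of MYC by 2.01 with EEDS and 1.63 with helveticoside, and that of MNT exceeded it by 0.63 and 0.81. The ratio of MXD4 was below that of MYC by a log2 difference of -2.45 and -2.39, that of MXD3 by -2.16 and -1.38, and that of MXI1 by -1.70 and -1.05. At the low and middle doses, where MYC was near its controls, MXD1 already exceeded it by 1.59 and 1.74 with EEDS and by 0.81 and 1.47 with helveticoside. These are differences of ratios on single arrays, with no replicate.

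Over the 6 log2 ratios, the genes most like MYC among the 11492 other genes measured well above background throughout were KAT7, a histone acetyltransferase (r = 0.998), FOXA3, a forkhead factor, MIDN, ZFYVE1 and IL4R, an interleukin receptor. Their ratios at the top EEDS dose ran from 0.63 for KAT7 to 1.74 for FOXA3. The genes most like MXD1 were KIF24, a kinesin (r = 0.999), PAPOLG, a poly(A) polymerase, FNIP1, a partner of folliculin, VCPKMT and KIAA0753. Their ratios at the top EEDS dose ran from 0.95 for KIF24 to 2.70 for FNIP1. With 6 points that share 2 controls and a dose order, r exceeded 0.9 with MYC for 7.82% of genes and with MXD1 for 12.9%, so these likenesses are descriptions with no p.

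Around the network, the 3 other partners of MAX or MLX passed in neither series, namely MGA, a MAX partner, and MLXIP and MLXIPL, the glucose-responsive partners of MLX. Their top-dose ratios were 0.15 and 0.34 for MGA, -0.63 and -0.44 for MLXIP, and -0.25 and -0.17 for MLXIPL. TXNIP, a thioredoxin inhibitor, and ARRDC4, its relative, which are classical targets of MLX with MLXIP, both rose in both series. TXNIP had top-dose ratios of 3.33 with EEDS and at least 3.49 with helveticoside (adjusted p = 0.0482 and 0.0232 by limma), a bound because its helveticoside control was not well above background. ARRDC4 had 3.40 and at least 2.32 for the same reason (adjusted p = 0.0147 and 0.0185 by limma). Of 15 SIN3 and NCOR corepressor genes in the fit, 2 rose and 2 fell with EEDS and 1 rose and 1 fell with helveticoside. The shares of all genes to read this and the following lists against are those given above, 7.3% rising and 7.9% falling with EEDS and 5.52% and 5.85% with helveticoside. ARID4B (1.69 and 0.98) rose and RBBP7 (-1.07 and -0.80) fell in both series. BRMS1 (-2.09) fell and ING1 (1.70) rose with EEDS, with ratios of -1.43 and 1.11 at 60 nM helveticoside that went with no passed trend.

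Among 20 genes of MYC cofactors, 4 rose and 2 fell with EEDS and 1 rose and 2 fell with helveticoside. KAT2A and DMAP1, parts of acetyltransferase complexes that MYC recruits, fell in both series, with top-dose ratios of -2.18 and -2.36 for KAT2A and -1.44 and -2.11 for DMAP1. KAT5, another acetyltransferase, rose in both (0.86 and 0.89). CCNT1, a cyclin of the elongation kinase, rose with EEDS (1.78) and stood at 1.23 with helveticoside without passing. Of 19 genes of MYC protein turnover, 3 rose and 2 fell with EEDS, and 2 rose and 0 fell with helveticoside. PIM1, a kinase that phosphorylates MYC, rose in both series, with top-dose ratios of 2.52 and 2.56 (adjusted p = 0.0130 and 0.0167 by limma). FBXW7, the F-box protein that marks MYC for degradation, rose with EEDS (2.096), and HUWE1, a ubiquitin ligase, fell with EEDS (-0.82). With helveticoside FBXW7 stood at 1.17 and HUWE1 at -0.61 without passing. BTRC, another F-box protein, rose with helveticoside (0.98) and stood at 0.78 with EEDS without passing. Of 10 regulators of the MYC transcript, TCF7L2, a Wnt pathway factor (1.62 and 1.94), and CNBP (0.93 and 0.82) rose in both series and 0 fell.

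Genes that MYC is known to activate lay on both sides of their controls. Of 60 such growth and ribosome biogenesis genes, 3 rose and 6 fell with EEDS and 2 rose and 5 fell with helveticoside, and 30 of 60 were below the control at each top dose. Their median top-dose ratio was -0.03 and -0.01, or -0.08 and -0.04 over the 59 genes with a ratio or bound, beside medians of 0.02 and -0.00 over all genes, of which 45.3% and 50.9% were below the control. ODC1, the ornithine decarboxylase of polyamine synthesis, rose in both series (1.80 and 1.92). DCTPP1, a nucleotide pyrophosphatase (-1.64 and -1.61), MYBBP1A, a nucleolar protein (-1.77 and -1.36), and AIMP2, a scaffold of the tRNA synthetase complex (-1.79 and -1.28), fell in both. Of 9 genes that MYC is known to repress, 5 rose and 0 fell with EEDS by the trend test. With helveticoside 3 rose and 0 fell, and the shares of all genes that rose were 7.3% and 5.52%. At the top doses 2 of 9 were below the control in each series. Over 2-fold, 4 were higher and 1 lower with EEDS, and 5 and 2 with helveticoside. Of all genes, 11.5% were higher and 12.5% lower with EEDS, and 7.95% and 9.79% with helveticoside. CDKN1A, the cyclin-dependent kinase inhibitor that p53 induces, rose at ratios of 3.23 and 2.52, CDKN1C, another such inhibitor, at 1.501 and 1.64, and NDRG1, a stress-response gene, at 0.83 and 1.09. GADD45A, a DNA damage gene, rose with EEDS (4.21) and stood at 3.53 with helveticoside without passing. The median over the list was 0.83 and 1.09, or 1.17 and 1.27 over the 8 genes with a ratio or bound. No test was run on either list.

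**Figure D4:**
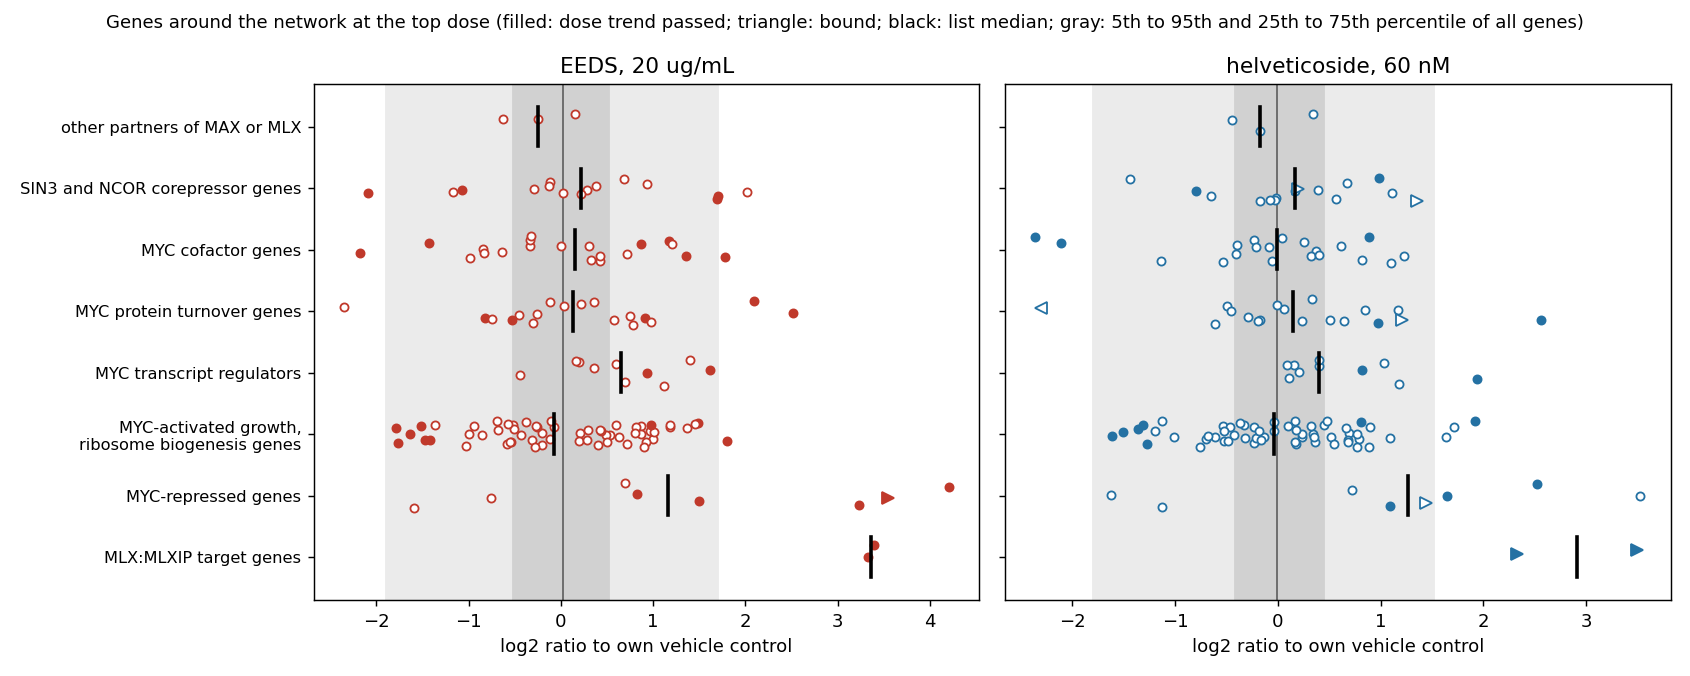
Log2 ratio to the series' own vehicle control (x axis) of the genes of 8 lists around the network (y axis) at 20 μg/mL EEDS (left) and 60 nM helveticoside (right). Filled symbols passed the dose trend, triangles are bounds, genes with neither array well above background are left out, black bars are list medians with bounds, and gray bands run from the 5th to the 95th and from the 25th to the 75th percentile of all genes. The MYC-activated genes spread on both sides of 0 around a median of -0.08 and -0.04, while TXNIP and ARRDC4 lie at 2.32 or above.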

How the data were processed

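For each array the authors deposited scanner intensity per spot: a processed signal with background removed, the scanned median, a local background value, and flags for outlying, saturated and well-above-background spots. The authors also deposited a table of linear intensity values that look quantile-normalized within each series, with medians of 120.08 to 121.17 (EEDS) and 191.55 to 191.91 (helveticoside). The build and annotation of the array design are not given in the sources used here, and no batch besides the series was recorded. The dye is given as Cy5, although the intensities read here are those of the green channel of the scanner, and this difference was not resolved.

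Control and outlier spots were left out (22 probes in full), processed signals were averaged by probe, quantile normalization was run across the 8 arrays, and log2 values were taken. Of 34127 probes, 24812 were named by accession through RefSeq, and the brightest of several probes was used for 4797 genes. The 19046 genes at 1.4 times the local background on at least 1 array of each series entered a limma fit. Before it, probes short of 1.4 times the background on an array were raised at least to the lowest value there that reached it. The fit (version 3.58.1 in R 4.3.3, with statmod 1.5.0) used a trended prior and robust estimation. It gave each series its own intercept and slope and left 4 residual degrees of freedom. A p-value therefore measures scatter about a line in the dose step, not between cultures, which were pooled. Adjusted p is Benjamini-Hochberg with a threshold of 0.05. The fit was also run on simulated data with straight-line slopes and independent noise, which does not test pooling or curved dose responses. Tables were made with pandas 2.3.3, numpy 2.4.6 and scipy 1.17.1 in Python 3.11.15.

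A gene not well above background on 1 side of a ratio is given as a bound. Besides the 10 members, up to 4 genes per list are named, those past the trend test in both series and then in 1, by the size of their top-dose ratios, along with TXNIP, ARRDC4 and the 5 genes most like MYC and MXD1. The members and lists were chosen with earlier results of these data known. USP36 and SUDS3 were not matched. Alternatives were scaling, background, the authors' values, filters, probes, the fit, the predictor, the control and leaving out each array.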

Additional observations from a re-analysis of the deposited data

How the results depend on the processing

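The members passing with EEDS numbered 2 in the reported fit and 4 with scaling to the 75th percentile, the signal as scanned, normexp correction or genes well above background on all arrays, and 5 with the authors' values. All genes passing with EEDS went from 15.2% to 20.9%, 18.6%, 18.8%, 31.3% and 25.3% under these settings in that order. With helveticoside 2 passed in the reported fit, 4 with the 75th percentile, the signal as scanned or normexp, and 0 with dose as a share of the top dose, where all genes passing went from 11.4% to 13.1%, 13.6%, 13.9% and 4.32%. MXD1 and MXD4 were among the members passing in both series under all of these settings other than the share of the top dose, under which only MYC and MXD3 passed, with EEDS. Leaving out 1 array at a time gave 0 to 3 members with EEDS and 0 to 2 with helveticoside. Among all genes, EEDS calls were 2894 in the reported fit, 4610 with the authors' values and 0 without the EEDS control or the 20 μg/mL array. Helveticoside calls were 2167 in the reported fit, 822 with the share of the top dose, 1429, 681, 742, 477 and 960 without the EEDS control, 1.25 μg/mL EEDS, 5 μg/mL EEDS, the helveticoside control and 3.75 nM, and 0 without 15 or 60 nM. EEDS calls numbered 1696 without 1.25 μg/mL, 896 without 15 nM helveticoside and 1843 without 60 nM. The difference of the trends had 0 calls, other than 3 with the share of the top dose. Over 2-fold higher at 20 μg/mL were 2 members, and 4 against the control of the other series. Over 2-fold lower were 3 members at 20 μg/mL, 1 with the mean of all probes, and 2 at 60 nM, 1 with the authors' values, with genes well above background on all arrays or with the mean of all probes. The share of all genes past 2-fold is given for the reported setting only. Swapping the controls also brings in their own difference, with an SD of 0.50 across 12389 genes. Whether the altered fold counts are particular to the members was therefore not tested. Of 304 slopes under alternatives, 257 kept their direction and side of the threshold, 16 no longer passed, 25 newly passed and 6 changed sign. The EEDS slope of MAX became 0.0116 with the mean of all probes. Slopes with 1 array left out ran from -0.0176 to 0.53 and from -0.0121 to 0.30 for MYC with EEDS and helveticoside, from -0.44 to 0.0899 for MAX with EEDS, and from -0.51 to 0.0154 and from -0.29 to 0.14 for MXI1. Of 142 top-dose ratios, 36 moved by more than the spread about the trend, and the cause was not tested. The 75th percentile scaling moved the median ratio of all genes to -0.36 at 20 μg/mL and -0.18 at 60 nM, and ratios under it are relative to that shift. No paired analysis was possible because each dose has 1 array and the labels carry no replicate numbers. Dim probes limit MYCL with helveticoside and MYCN in both series.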
